A study of Homo sapiens with 3 samples.

Results

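Osteoblasts and their tumours release factors that act on neighbouring cells, and 8 genes for such factors were followed here in peak lists of RUNX2 and its partner CBFB: TNFSF11, TNFRSF11B, CSF1, IL6 and IL11, which tie bone-forming cells to osteoclasts, and VEGFA, VEGFC and CXCL12, which act on vessels and on homing cells. The 8 genes were chosen out of 20136 protein-coding genes by their known roles, with earlier results of these data known. For each gene, all peaks that touched the gene body or the 25 kb to either side were taken from both lists. The data came from ChIP-seq, in which chromatin is pulled down with an antibody and its DNA is sequenced, in untreated SAOS2 cells, a human osteosarcoma line without functional p53. The series held 3 samples, which were 1 RUNX2 ChIP made with a custom antibody, 1 CBFB ChIP made with an antibody from Bethyl, and 1 input DNA. Peaks were given for both ChIP libraries, and the input was not analysed here. A single line and 1 library per antibody mean that no value has a replicate error and that no difference was tested. The lists held 9941 RUNX2 peaks and 27246 CBFB peaks. They give no read counts, so the depth is unknown.

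RANKL, the product of TNFSF11, binds RANK on osteoclast precursors and drives their maturation. Osteoprotegerin, the product of TNFRSF11B, is a soluble decoy receptor that captures RANKL. Osteoblasts express both genes, and RUNX2 has long been studied as a regulator of the pair. CSF1 encodes M-CSF, which keeps osteoclast precursors alive. IL-6 and IL-11 signal through the shared receptor gp130 and can raise RANKL in osteoblasts. VEGF-A and VEGF-C are ligands of receptor tyrosine kinases on blood and lymphatic endothelium, and CXCL12 is the chemokine that retains CXCR4-bearing cells in bone marrow. RUNX2 contacts DNA through its Runt domain at a core of TGTGGT, while CBFB does not contact DNA and strengthens the hold of RUNX proteins on it.

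A peak of the RUNX2 list lay within 25 kb of 5 of the 8 genes, namely TNFSF11, TNFRSF11B, CSF1, IL11 and VEGFA (62.5%, exact 95% interval 24.5 to 91.5, counting error only). The background was 36.1% of all protein-coding genes, which lies inside that interval. A CBFB peak lay within 25 kb of 7 genes (87.5%, 47.3 to 99.7), against a background of 62.2%, again inside the interval. IL6 and VEGFC had a CBFB peak and no RUNX2 peak, a state shared by 27.1% of protein-coding genes. CXCL12 had no peak of either list, as did 36.8% of protein-coding genes. The same 5 genes had a RUNX2 peak that shared at least 1 bp with a CBFB peak, and 34.1% of protein-coding genes had one.

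In total 8 RUNX2 and 19 CBFB peaks were found. The mean number per gene was 1 for RUNX2 and 2.38 for CBFB, and over all protein-coding genes it was 0.615 and 1.66. Counts per gene ran from 0 to 2 in the RUNX2 list and from 0 to 5 in the CBFB list. TNFRSF11B and IL11 stood at the top of both with 2 RUNX2 and 5 CBFB peaks each. CSF1 equalled them in the RUNX2 list with 2 peaks and had 3 CBFB peaks. At least 2 RUNX2 peaks were present at 13.9% of protein-coding genes, and at least 5 CBFB peaks at 8.59%.

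**Figure D1:**
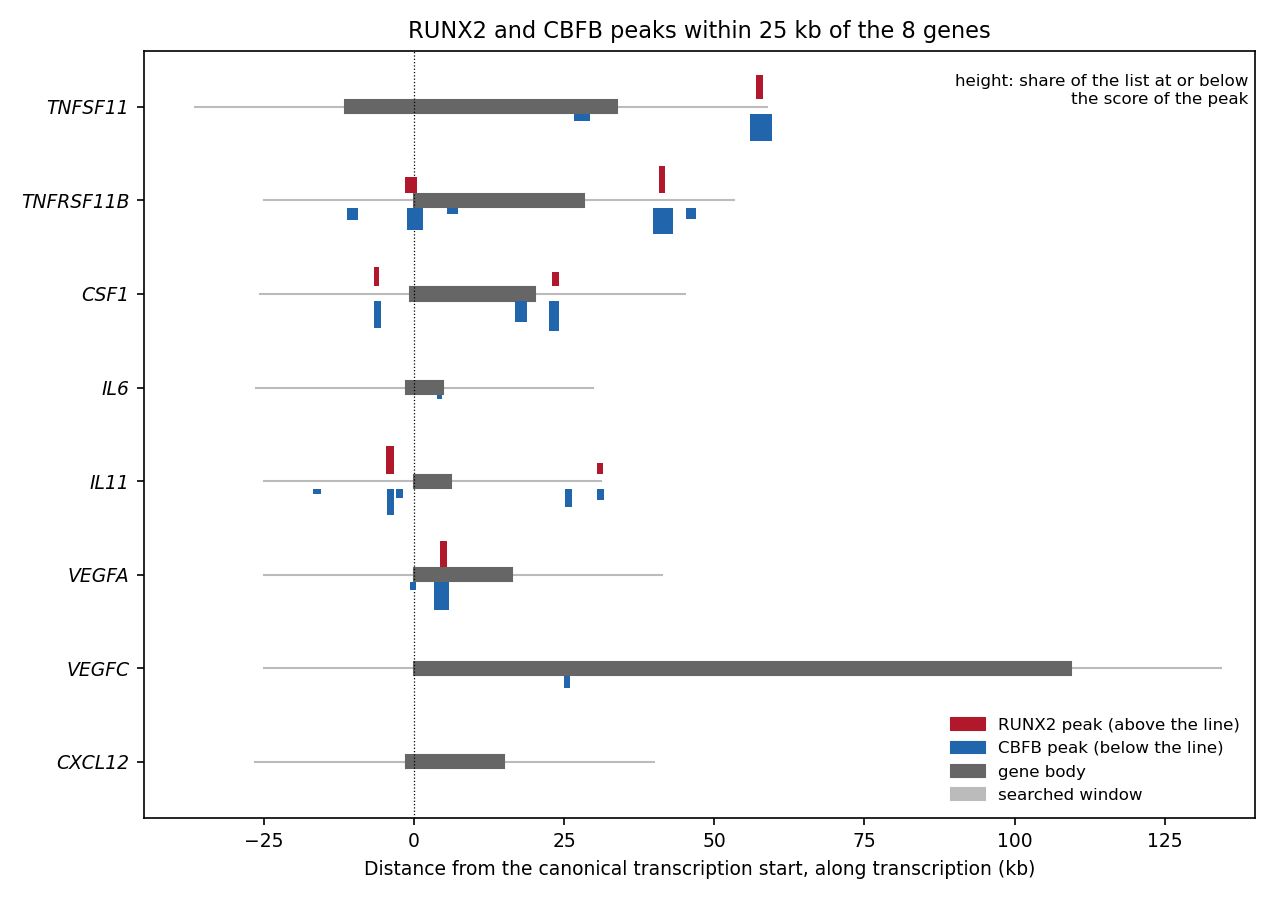
Map of the RUNX2 peaks (above each line) and CBFB peaks (below) within 25 kb of the 8 genes, drawn to scale by distance in kb from the canonical transcription start along transcription; bar height gives the share of the list at or below the score of the peak. All 8 RUNX2 peaks sit over a CBFB peak, and the CXCL12 window is empty.

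The sequences around a RUNX core are given first for 4 of the 6 RUNX2 peaks that held one, since it is the sequence that RUNX proteins contact. Both peaks of TNFRSF11B also held a core, and their sequence is not shown. Each run is the plus strand of GRCh37 with 20 bases to either side of the core that lay nearest to the peak midpoint, and capitals mark TGTGGT or its complement ACCACA. The first 4 come from RUNX2 peaks and the last 2 from the CBFB peaks of the genes without a RUNX2 peak.
TNFSF11, downstream, chr13:43205709-43205754: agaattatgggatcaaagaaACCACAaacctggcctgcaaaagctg
CSF1, upstream, chr1:110447306-110447351: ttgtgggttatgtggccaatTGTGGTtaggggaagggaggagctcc
CSF1, downstream, chr1:110477002-110477047: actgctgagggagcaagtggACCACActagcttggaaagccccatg
VEGFA, second intron, chr6:43742721-43742766: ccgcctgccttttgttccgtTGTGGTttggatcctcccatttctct
IL6, coding exon, chr7:22771041-22771086: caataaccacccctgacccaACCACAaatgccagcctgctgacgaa
VEGFC, first intron, chr4:177688534-177688579: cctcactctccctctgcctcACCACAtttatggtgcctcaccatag
At TNFSF11, CSF1 upstream, VEGFA and IL6 the core is part of the longer TGTGGTT (or AACCACA on the shown strand), and at the other 2 it is not. Both TNFRSF11B peaks, which are not shown, held no TGTGGTT. Within 100 bp of the midpoint it was present in 1 of the 8 RUNX2 peaks (12.5%) and in 23.4% of the RUNX2 list.

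Genes of the RANKL system were taken first. TNFSF11 (ENSG00000120659, chr13:43136872-43182149, plus strand) had 1 RUNX2 peak, and it lay beyond the gene. The peak (43205291 to 43206399) began 23.1 kb past the annotated end of the gene in intergenic sequence, 57.6 kb from the canonical transcription start. Its score was 149.57. Scores are those of the authors' peak caller and rise as the p-value of a peak falls, and 81.3% of the RUNX2 list was at or below this one. No other protein-coding gene lay within 25 kb of it. The peak was wholly inside a CBFB peak of 3567 bp (43204310 to 43207876) with a score of 395.84, at or above 87.6% of the CBFB list. A second CBFB peak, with a score of 69.26 (20.6% of the list at or below), lay in the fourth intron of TNFSF11 and overlapped no RUNX2 peak. No peak of either list lay at the start of TNFSF11.

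TNFRSF11B (ENSG00000164761, chr8:119935796-119964124, minus strand) was the only one of the 8 genes whose canonical transcription start lay under a RUNX2 peak. That peak (119963600 to 119965544) was the widest of the 8, at 1945 bp. It had its midpoint 448 bp upstream of the start and a score of 87.85 (53.0% of the list at or below). The stronger RUNX2 peak of TNFRSF11B lay past the end of the gene, 12.4 kb away and 41.3 kb from the start (119922304 to 119923373), and its score of 212.02 placed it 926th of the list. CBFB peaks overlapped both, with scores of 221.72 at the start and 380.61 downstream. The other 3 CBFB peaks, 10.3 kb upstream of the start, in the first intron and 46.2 kb downstream of the start, had scores of 99.89, 70.91 and 95.69, all below the median of the CBFB list, which was 121. The order of the scores was thus the same in both lists, downstream above start.

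CSF1 (ENSG00000184371, chr1:110452864-110473614, plus strand) was flanked on both sides. The upstream RUNX2 peak (110446876 to 110447704) ended 5.16 kb before the gene and had a score of 106.83 (65.6% of the list at or below). The downstream RUNX2 peak (110476480 to 110477550) began 2.87 kb past the end of the gene and had a score of 81.69 (47.8%), just under the list median of 84.1. In the CBFB list the order was the other way round. The CBFB peak over the downstream site scored 1044.17, rank 541 of the list and the highest score of the 19, whereas that over the upstream site scored 414.22 (88.4%). The remaining CBFB peak, with a score of 198.73, lay in the eighth intron of CSF1 without a RUNX2 peak. Its score was the highest among the CBFB peaks that overlapped no RUNX2 peak at these genes.

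The cytokines of the gp130 family differed from each other. IL11 (ENSG00000095752, chr19:55875750-55881831, minus strand) had the highest RUNX2 score of all 8 genes. This peak (55885205 to 55886495) lay 3.37 kb upstream of IL11 with a score of 241.6, rank 665 of the list (93.3% at or below). It sat between IL11 and TMEM190, and its midpoint was 4.02 kb upstream of the start of IL11 and 2.34 kb upstream of the start of TMEM190. A CBFB peak with a score of 380.44 lay wholly within it, with the midpoints 25 bp apart, the closest match among the 8 pairs. The second RUNX2 peak of IL11 (55850360 to 55851366, score 68.77) lay 24.4 kb past the end of the gene but only 358 bp upstream of the start of KMT5C, a histone methyltransferase gene, and its CBFB partner scored 96.42. This part of chromosome 19 is dense in genes, and the peak upstream of IL11 lay within 25 kb of 8 protein-coding genes, IL11 included.

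IL6 (ENSG00000136244, chr7:22765503-22771621, plus strand) had a single CBFB peak (22770677 to 22771527) with its midpoint in the coding sequence, 4.28 kb downstream of the start. Its score of 61.12 was the lowest of the 19 and only 13.3% of the CBFB list was at or below it. Its midpoint lay closer to the start of STEAP1B (3.87 kb) than to that of IL6. The nearest RUNX2 peak was 127 kb downstream, in the direction of TOMM7.

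Among the genes of vessels, VEGFA (ENSG00000112715, chr6:43737921-43754224, plus strand) had 1 RUNX2 peak inside the gene. The peak (43742203 to 43743495) was centred 4.9 kb downstream of the start, in the second intron of the canonical transcript and in an exon of another annotated VEGFA transcript. Its score was 183.31 (87.2% of the list at or below). It lay wholly within a CBFB peak of 2525 bp with a score of 513.96, one of 2 CBFB peaks at these genes in the top 10% of the list. A second CBFB peak spanned the start of VEGFA (43737285 to 43738227) with a score of 76.65 and no RUNX2 peak.

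VEGFC (ENSG00000150630, chr4:177604689-177714076, minus strand) is the longest of the 8 genes at 109388 bp, and had 1 CBFB peak in its first intron (177688126 to 177689046, score 104.22, 42.8% of the list at or below). A RUNX2 peak with a score of 52.73 lay 31.8 kb upstream of the gene, outside the reach used here. At CXCL12 (ENSG00000107562, chr10:44865613-44881941, minus strand) the nearest CBFB peak was 127 kb downstream, with a score of 51.51, and the nearest RUNX2 peak was 1417 kb upstream. Peaks were absent at the limit used by the peak caller, which does not show that the proteins were absent.

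**Figure D2:**
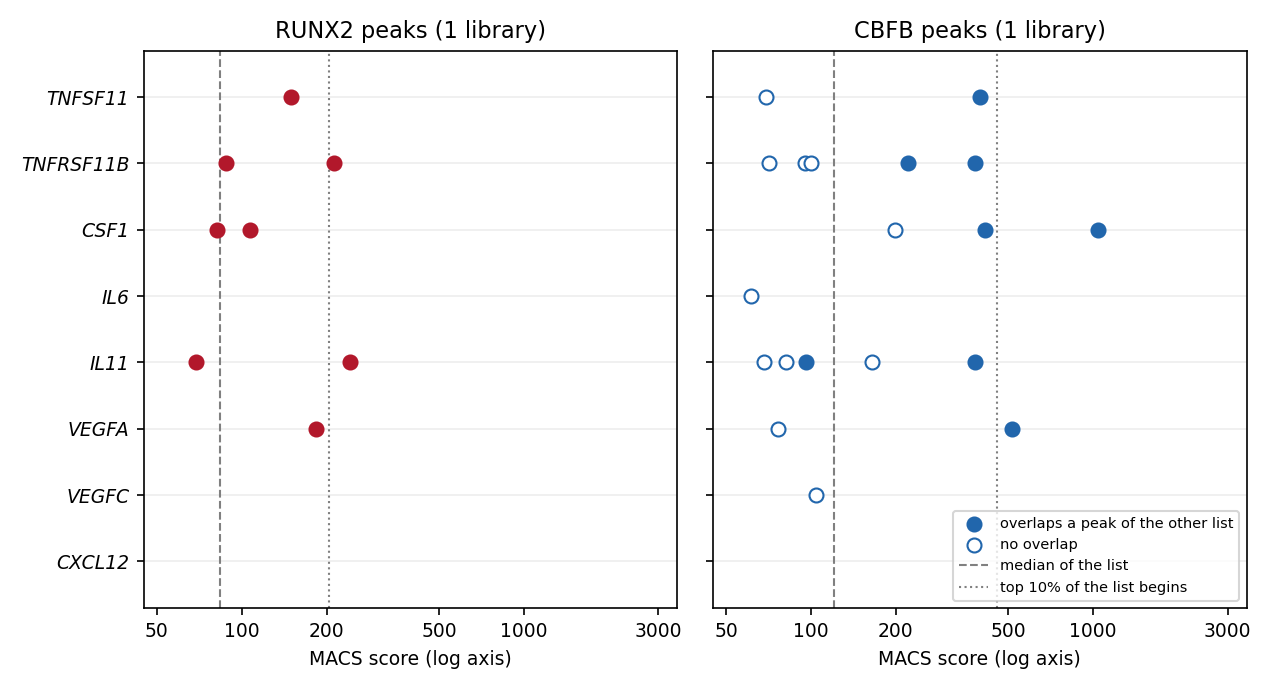
Score of each RUNX2 peak (left) and CBFB peak (right) within 25 kb of the 8 genes on a log axis, filled where the peak overlaps a peak of the other list; lines mark the list median and the start of its top 10%. All RUNX2 points are filled, and the filled CBFB points run from 96.4 to 1044 while the open ones run from 61.1 to 199.

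All 8 RUNX2 peaks overlapped a CBFB peak (100%, exact 95% interval 63.1 to 100), and so did 94.2% of the whole RUNX2 list. Both shares use an overlap of at least 1 bp. The authors' paper reports a lower share for its RUNX2 peaks and does not state its overlap rule. In 6 of the 8 pairs the RUNX2 peak lay wholly inside the CBFB peak. Midpoints were 25 to 571 bp apart, with a median of 216 bp, and the pair that was 571 bp apart was at the start of TNFRSF11B. Of the CBFB peaks at these genes, 8 of 19 met a RUNX2 peak (42.1%, 20.3 to 66.5), against 33.8% of the CBFB list. The overlapping CBFB peaks had a median score of 388 and the other 11 one of 81.6. Only 3 of these 11, at CSF1, VEGFC and in the gene AC020922.1 near IL11, scored over 100. In the whole list the medians were 278 for overlapping and 91.2 for other CBFB peaks, so that the gap at these genes had the direction of the list as a whole.

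Most of the RUNX2 peaks scored at or above the median of their list, and none reached its top. Scores ran from 68.77 to 241.6 with a median of 128, while the list ran from 50 to 3100 with a median of 84.1. Of the 8 peaks, 6 were at or above the list median and 2, downstream of TNFRSF11B and upstream of IL11, were in the top 10%. A RUNX2 peak in the top 10% lay within 25 kb of 5.46% of protein-coding genes. CBFB scores at the 8 genes had a median of 104 and 9 of 19 were at or above the list median.

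The peaks were next placed relative to the genes. The midpoint lay in no annotated transcript for 7 of the 8 RUNX2 peaks (87.5%, exact 95% interval 47.3 to 99.7) and for 9 of the 19 CBFB peaks (47.4%, 24.4 to 71.1), against 29.9% and 28.4% of the whole lists. These 8 peaks came from 5 genes and are not independent. The peaks at the start of TNFRSF11B and within VEGFA touched the body of the gene they were assigned to, which is 2 of 8 (25%, 3.19 to 65.1). Over all pairs of a protein-coding gene and a RUNX2 peak within 25 kb the share was 54.2%, inside that interval. Of the 19 CBFB peaks, 8 touched the gene body (42.1%, 20.3 to 66.5), and 56% of all such CBFB pairs did. The nearest protein-coding start belonged to one of the 8 genes for 6 RUNX2 and 14 CBFB peaks. The exceptions were both RUNX2 peaks and 4 of the 5 CBFB peaks of IL11, which were nearer to KMT5C, TMEM190 or RPL28, and the CBFB peak of IL6.

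Next, copies of the RUNX core were looked for on both strands. Within 100 bp of the midpoint it was present in 3 of the 8 RUNX2 peaks (37.5%, exact 95% interval 8.52 to 75.5), the pair at CSF1 and the one downstream of TNFRSF11B. The share was 43.2% in windows of the same length over the whole list. It was found in 9 of 19 CBFB peaks (47.4%, 24.4 to 71.1) and in 41.6% of the CBFB list. When the whole peak was searched, 6 of the 8 RUNX2 peaks held it. The cores printed above lay 113 bp from the midpoint at TNFSF11 and 105 bp at VEGFA, just beyond the window, and 39 and 10 bp from it at the CSF1 peaks upstream and downstream.

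Both RUNX2 peaks of IL11 held no copy of these letters in their whole length, and neither did 21.9% of the RUNX2 list. To show the contrast, the windows of 201 bp around the midpoints are given for the peaks upstream of CSF1 and of IL11, on the plus strand, with capitals for any copy of the RUNX core, of TGANTCA (AP-1) or of GGAATG and its complement (TEAD).
CSF1, upstream, chr1:110447190-110447390: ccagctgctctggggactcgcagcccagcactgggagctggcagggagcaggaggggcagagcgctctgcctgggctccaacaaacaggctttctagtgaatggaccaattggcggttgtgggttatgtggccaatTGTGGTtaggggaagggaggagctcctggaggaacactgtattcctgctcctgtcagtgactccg
IL11, upstream, chr19:55885750-55885950: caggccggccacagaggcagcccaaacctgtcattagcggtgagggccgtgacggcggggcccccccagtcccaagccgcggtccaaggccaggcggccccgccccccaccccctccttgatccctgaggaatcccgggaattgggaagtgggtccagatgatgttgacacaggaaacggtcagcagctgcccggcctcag
The IL11 window is 68.2% G or C and that of CSF1 59.7%, while the median over the RUNX2 list was 49.8%. These counts of letters do not show which protein was bound at a site.

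The AP-1 and TEAD letters were each present in 1 of the 8 RUNX2 windows, and in both cases this was the peak downstream of TNFRSF11B, which also held the RUNX core 24 bp from its midpoint. The list had AP-1 in 13.1% and TEAD in 15.5% of windows. Of the 19 CBFB windows, 3 held AP-1, at the peaks downstream of CSF1, 2.4 kb upstream of IL11 and in RPL28, and 1 held TEAD, in VEGFA. The CBFB list had them in 11.9% and 14.4%.

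Peaks are not spread evenly over the genome, so the density near each gene was set beside that of its surroundings. The 8 windows covered 0.649 Mb and held 12.3 RUNX2 peaks per Mb, against 6.69 per Mb in the 1 Mb beyond each window on both sides and 3.21 per Mb over chromosomes 1 to 22, X and Y. For CBFB these densities were 29.3, 16.6 and 8.79 per Mb. The flanks and chromosomes also hold sequence far from genes, so these densities do not compare like with like. The mean within 25 kb of a gene was 1 RUNX2 peak at the 8 genes and 0.615 over all protein-coding genes. For CBFB it was 2.38 and 1.66. The 8 genes differed in how their windows compared with their flanks. At IL11 the window held 35.7 RUNX2 peaks per Mb and its flanks 2.5, and at TNFRSF11B the values were 25.5 and 4.5. At VEGFA, on the short arm of chromosome 6, the flanks were the denser part, with 15.1 per Mb in the window and 20.5 around it, and TNFSF11 was similar with 10.5 and 13. A window value rests on only 0 to 2 RUNX2 peaks.

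**Figure D3:**
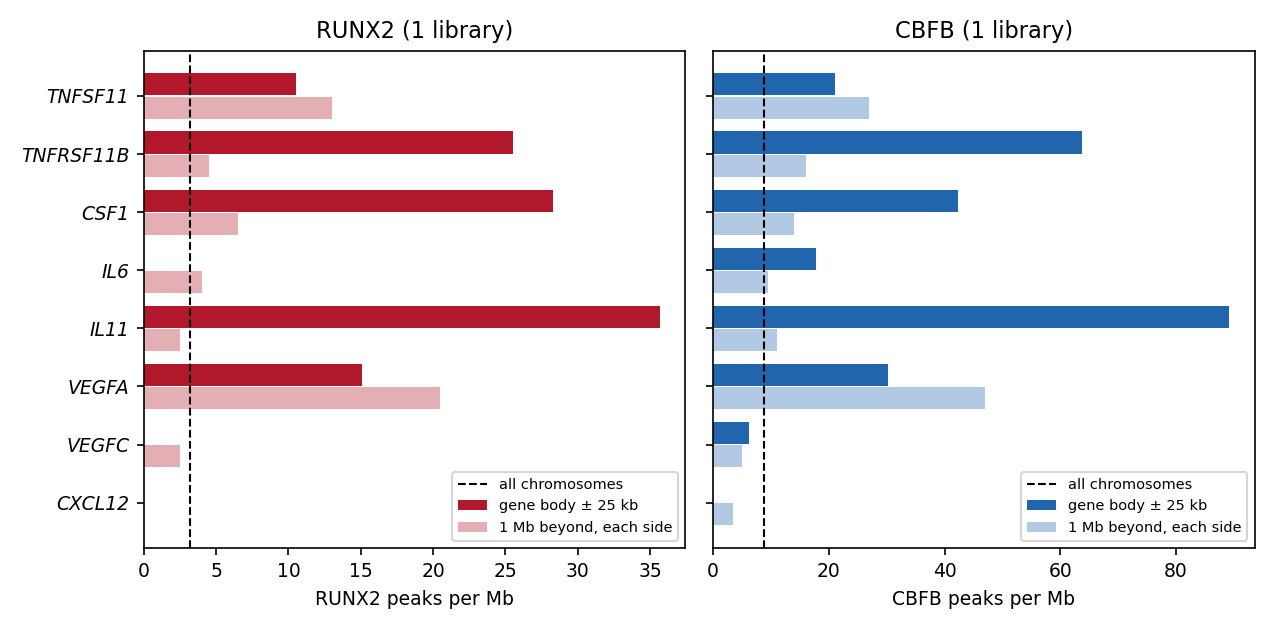
RUNX2 (left) and CBFB (right) peaks per Mb within 25 kb of each gene body (dark bars) and in the 1 Mb beyond that window on each side (pale bars), with a dashed line for all chromosomes. The flanks of VEGFA reach 20.5 RUNX2 peaks per Mb, and those of CXCL12 hold none.

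Finally, other genes of the same pathways were counted from 3 lists of their receptors, ligands and mediators. Of 17 further genes of osteoclast coupling, 6 had a RUNX2 and 11 a CBFB peak within 25 kb (35.3% and 64.7%), close to the background of 36.1% and 62.2%. The IL-6 family list held cytokines, receptors and the signalling genes JAK1, STAT3 and SOCS3. JAK1, STAT3 and SOCS3 each had a RUNX2 and a CBFB peak. In this list 8 of 13 genes had a RUNX2 peak (61.5%, exact 95% interval 31.6 to 86.1) and 12 a CBFB peak (92.3%, 64.0 to 99.8). Of 17 further angiogenic factors and receptors, 5 had a RUNX2 peak (29.4%) and 7 a CBFB peak (41.2%, 18.4 to 67.1). The intervals included the background except that of CBFB in the IL-6 family. The single CBFB peak of OSM was also 1 of the 4 of its neighbour LIF, and with this pair counted once the share was 11 of 12 (91.7%, 61.5 to 99.8), an interval that includes the background. Together 19 of these 47 genes had a RUNX2 peak (40.4%) and 30 a CBFB peak (63.8%), and 17 had neither (36.2%). These shares were close to those over all protein-coding genes, which were 36.1%, 62.2% and 36.8%.

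Receptors of the ligands above differed, and 36.8% of all protein-coding genes had no peak of either list. RANK (TNFRSF11A), the VEGF receptors FLT1, KDR and FLT4, and the CXCL12 receptors CXCR4 and ACKR3 had no peak of either list within 25 kb. The same was true of NFATC1, IL34, TNFSF10, WNT5A and PTGS2 in the first list, of CTF1 in the second, and of VEGFD, PGF, ANGPT2, TEK and HIF1A in the third. In contrast, IL6R, the receptor of IL-6, had 3 RUNX2 and 8 CBFB peaks, and its highest RUNX2 score was 360.23 in an intron. CSF1R, the receptor of M-CSF, had 2 RUNX2 peaks with a highest score of 108.69. IL11RA, the receptor of IL-11, had 1 RUNX2 peak with a score of 64.05, and NRP1 had 2 RUNX2 and 5 CBFB peaks. The gp130 gene IL6ST had 1 CBFB peak and no RUNX2 peak.

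RUNX2 peaks in the top 10% of the list were found at 7 of the 47 genes of the 3 lists (14.9%, exact 95% interval 6.20 to 28.3), and at 5.46% of all protein-coding genes. The lists were chosen with earlier results known, and this difference was not tested. EFNB2, which encodes the ligand ephrin-B2, had a peak from 107116349 to 107117141 on chromosome 13, in intergenic sequence. The peak lay at the far edge of the 25 kb reach, and its midpoint was 71.3 kb from the canonical start of EFNB2. Its score of 697.39 was the highest (99.5% of the list at or below). The others were 360.23 at IL6R, 318.26 near EPAS1, which encodes a hypoxia-inducible factor, 288.63 near SPHK1 in an intron of PRPSAP1, 244.23 at SOCS3, an inhibitor of gp130 signalling, 215.77 at the start of STAT3 and 213.99 in an intron of the co-receptor gene NRP2. All of these exceeded the score downstream of TNFRSF11B, and 5 of them exceeded the 241.6 found upstream of IL11. NRP2 had 7 RUNX2 peaks, the most of any gene in the lists. It is a long gene (chr2:206546714-206662857), and a longer gene has a wider search window.

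**Figure D4:**
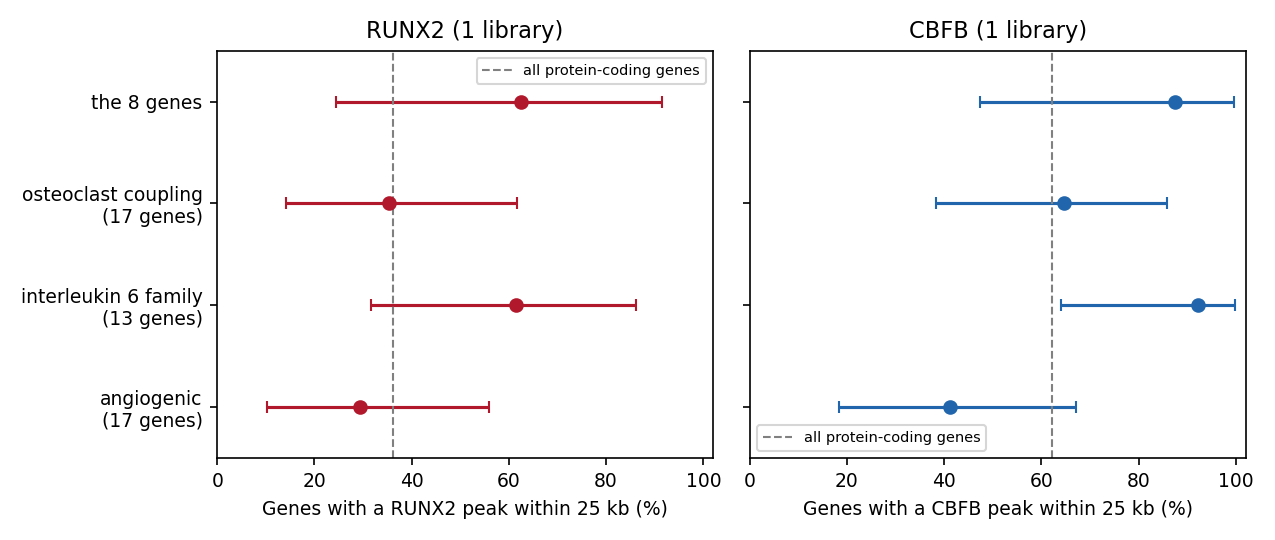
Share of genes with a RUNX2 (left) or CBFB (right) peak within 25 kb in the 8 genes and in 3 lists of their pathways, as points with exact 95% intervals (counting error only), and dashed lines for all protein-coding genes. The CBFB interval of the IL-6 family starts at 64.0, just above the line of 62.2%, and at 61.5 when LIF and OSM, which share a peak, are counted once; the other intervals include their lines.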

How the data were processed

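The RUNX2 and CBFB libraries of SAOS2 cells gave 1 peak list each. Per the labels, the authors used CASAVA 1.8.2, MACS 1.4.1 and hg19. The aligner, the p-value limit, filters and whether the input served as control are not given in the sources used here. The deposited score was read as the MACS score, -10 times log10 of the p-value of a peak, from its range and the peak names. It depends on depth, so scores were ranked within a list only.

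Coordinates are hg19 (GRCh37), counted from 1. Gene models came from GENCODE release 44, lifted to GRCh37, with 20136 of them protein-coding. A peak was assigned to each gene whose body lay within 25 kb. Peaks overlapped when they shared at least 1 bp. The RUNX core (TGTGGT) and the letters given in the text for AP-1 and TEAD were searched on both strands within 100 bp of each midpoint, without 13 RUNX2 and 42 CBFB peaks on other contigs. Shares carry exact Clopper-Pearson 95% intervals. No tests were run. The genes and lists were chosen with earlier results of these data known. All 8 genes were named, and of the pathway lists those with a RUNX2 peak in the top 10% of scores or without a peak, as well as neighbours of the peaks. CSF1R, IL11RA, IL6ST, NRP1, LIF, OSM and JAK1 were named after their values were seen. Counting and overlap steps were tested on simulated peaks. Analyses used Python 3.11.15, numpy 2.4.6, pandas 2.3.3, scipy 1.17.1 and matplotlib 3.10.9.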

Additional observations from a re-analysis of the deposited data

How the results depend on the processing

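Of 69 recomputed counts and shares for 11 results, 56 stayed within 1.5 times the count or within the interval of the share, and 13 did not. Intervals of shares of 8 peaks are wide, so staying inside them says little. The RUNX core share of 37.5% in the RUNX2 peaks became 12.5% with TGTGGTT and still counted as unchanged. The count of the 8 genes with a RUNX2 peak ran from 4 to 6 and with a CBFB peak from 5 to 7 in the alternatives run. Within 5 kb, 4 RUNX2 and 12 CBFB peaks were left, and within 100 kb there were 20 and 52, as a shorter or longer reach holds fewer or more peaks. The background was 25.2% of protein-coding genes for RUNX2 and 48.5% for CBFB within 5 kb, and 59.2% and 81.4% within 100 kb. Within 100 kb, 31 of the 47 pathway genes had a RUNX2 peak (66.0%). With scores of at least 100, 5 RUNX2 and 10 CBFB peaks were left. With both lists cut at their medians, 6 RUNX2 and 9 CBFB peaks were left. Of these 9 CBFB peaks, 66.7% overlapped a RUNX2 peak that was also kept. When only the 9941 top CBFB peaks were kept, with the RUNX2 list uncut, 87.5% of those at the 8 genes overlapped a RUNX2 peak. No share over the whole list is given for these limits. With midpoints within 200 bp, 50% of the RUNX2 peaks at the 8 genes matched a CBFB peak. The share of the whole RUNX2 list under this rule is not given either. The RUNX core was in 84.2% of the CBFB peaks when whole peaks were searched, against 80.9% of the CBFB list, and TGTGGTT was in 10.5% of their windows, against 23.2%. Leaving out peaks nearer to the start of another protein-coding gene, a setting added after seeing the data, left 6 RUNX2 and 14 CBFB peaks at 4 and 6 genes, with IL11 losing both RUNX2 peaks. Counting LIF and OSM once, also added later, gave 91.7% in place of 92.3% of the IL-6 family with a CBFB peak. No paired analysis was possible because the ChIP samples are single libraries. Depth and antibody cannot be told apart from a difference between the lists.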

Other observations

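Between 25 and 100 kb from the 8 genes lay a further 12 RUNX2 and 33 CBFB peaks, and all 12 RUNX2 peaks overlapped a CBFB peak. VEGFA had the most, with 4 RUNX2 and 11 CBFB peaks. A peak 44.2 kb upstream of VEGFA (chr6:43692543-43693736) scored 454.71 in the RUNX2 list and lay over a CBFB peak of score 1528.52, nearer to the start of MRPS18A than to that of VEGFA. A peak 99.4 kb downstream (chr6:43853586-43855897) scored 441.6, and its CBFB partner had a score of 3100, the top value of both lists, which 25 CBFB and 2 RUNX2 peaks share. The nearest protein-coding start to it was still that of VEGFA.

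TNFSF11 had 2 more RUNX2 peaks past its end, 40.9 kb away with a score of 88.73 and 46.9 kb away with a score of 180.16. The latter scored above the peak within 25 kb and overlapped a CBFB peak of score 578.56. A peak 38.4 kb upstream of TNFRSF11B, nearer to COLEC10, scored 205.82, close to the 212.02 of the peak downstream of the gene. VEGFC, without a RUNX2 peak within 25 kb, had 3 of them within 100 kb with scores of 52.73, 70.47 and 70.52, all below the list median. IL6, IL11 and CXCL12 had no RUNX2 peak between 25 and 100 kb. No function of these sites was measured, and whether they act on these genes was not tested.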
